A study of Homo sapiens with 18 samples.

Results

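Lysosomal enzymes, lysosomal membrane proteins and the proton pump were followed through 41 listed genes in Raji cells, an established B-cell line that came from a Burkitt lymphoma and carries Epstein-Barr virus. The genes were taken by symbol from the platform's gene table, with only probe sets that name 1 gene, and all 41 were measured, each by 1 probe set, out of 18417 genes in all. They comprised 16 hydrolases and their activator protein, 7 membrane and cholesterol transfer proteins, 15 subunits or accessory proteins of the V-ATPase and 3 transcription factors. For short, the first class is called hydrolases, though it holds the activator PSAP, and the second membrane proteins, though it holds the soluble NPC2. All cells received the inducers sodium n-butyrate, at 3 mM, and phorbol ester, at 0.05 µM, together with the plant triterpene maslinic acid at 19 µM. Harvests came at 4, 8, 12, 24 and 48 h, and each was compared with 0 h. Each of the 6 times had 3 arrays, labelled as biological replicates, which gave 18 arrays. The 0 h arrays carry all 3 compounds in their labels too, and neither untreated cells at later times nor cells lacking 1 compound were analysed here. Effects of the compounds and of time in culture therefore cannot be told apart. Separate cultures are not stated, so the p-values measure the spread between these samples.

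Lysosomes are the acidic compartments in which proteins, lipids, glycans and nucleic acids are taken apart by soluble hydrolases. The V-ATPase pumps protons into them: its cytosolic V1 sector splits ATP and turns a rotor, and its membrane-bound V0 sector carries the protons across. TFEB, TFE3 and MITF are transcription factors that bind CACGTG-type letters, known as CLEAR elements, in the promoters of many lysosomal genes, and TFEB is held in the cytosol while mTORC1 is active on the lysosomal surface. B cells also use lysosome-related compartments to process antigen for MHC class II.

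Promoter stretches are shown because this motif is the feature of the pathway that can be read directly from the genes. Sequences are from RefSeq on GRCh38.p14 and cover 250 bases before to 50 bases after a gene's start. Of the 41 genes, 30 had at least 1 such window, 46 windows in all. The letters CACGTG, which read the same on both strands, were in 9 of 46 windows (19.6%), against 2548 of 35116 windows of all genes (7.26%). A longer form with GT directly before and AC directly after these letters, also the same on both strands and holding the shorter one within it, was in 3 of 46 windows (6.52%), against 124 of all windows (0.353%). The bases shown lie directly before the annotated start, 200 of them for LAMP1 and 100 for each other gene, written 5′ to 3′ on the gene's strand with CACGTG in capitals. LAMP1, CTSA, MCOLN1, GAA and ATP6V1G1 hold the motif. NPC1 and LIPA, which had the largest differences from 0 h among the membrane proteins and the hydrolases, do not hold it in the stretch shown.
LAMP1: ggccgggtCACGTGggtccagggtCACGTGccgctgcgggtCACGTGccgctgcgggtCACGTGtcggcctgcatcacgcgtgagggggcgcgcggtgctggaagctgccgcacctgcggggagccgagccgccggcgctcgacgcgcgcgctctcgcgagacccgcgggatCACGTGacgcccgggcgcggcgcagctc
CTSA: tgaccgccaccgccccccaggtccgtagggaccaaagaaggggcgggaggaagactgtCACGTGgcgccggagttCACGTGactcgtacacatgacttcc
MCOLN1: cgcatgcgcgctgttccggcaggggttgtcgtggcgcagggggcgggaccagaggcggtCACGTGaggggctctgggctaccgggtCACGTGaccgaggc
GAA: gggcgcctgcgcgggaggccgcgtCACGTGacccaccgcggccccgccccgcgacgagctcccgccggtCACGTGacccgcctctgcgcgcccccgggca
ATP6V1G1: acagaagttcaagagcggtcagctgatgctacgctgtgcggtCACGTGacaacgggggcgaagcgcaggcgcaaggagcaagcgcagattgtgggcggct
NPC1: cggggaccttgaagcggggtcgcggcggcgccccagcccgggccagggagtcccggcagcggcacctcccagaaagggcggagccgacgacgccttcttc
LIPA: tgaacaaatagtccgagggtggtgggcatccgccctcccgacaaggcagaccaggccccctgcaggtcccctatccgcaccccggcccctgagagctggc

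The LAMP1 stretch is chr13:113297039-113297238 on the plus strand and holds 5 copies, and its whole window holds 6. The stretches of CTSA (chr20:45891235-45891334), MCOLN1 (chr19:7522524-7522623) and GAA (chr17:80101481-80101580), all on the plus strand, hold 2 copies each. ATP6V1G1 (chr9:114587669-114587768, plus strand) holds 1 copy. NPC1 (chr18:23586507-23586606) and LIPA (chr10:89251776-89251875) lie on the minus strand, and the LIPA stretch belongs to 1 of its 3 windows. A motif match is a description of letters and not of binding.

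The arrays were alike in level, with medians of 4.03 to 4.25 on the log2 intensity scale, and in spread, except that replicate 2 of 8 h had an interquartile range of 2.37 where the other 17 arrays had 2.74 to 3.16. Replicate 3 gave the highest of the 3 values for 25 of 41 members (0 h), 28 (4 h), 24 (8 h) and 23 (48 h). Over all genes that share lay between 32.4% and 37.1% at the same times. The part of this in the results was not tested. Of 5 measured B cell markers (MS4A1, CD79A, CD79B, PAX5 and CD22), the mean per array ran from 7.69 to 7.81 (0 h), 6.33 to 7.30 (8 h), 6.52 to 6.80 (12 h) and 6.52 to 7.43 (48 h). MS4A1, PAX5 and CD22 were lower at 12 h than at 0 h, and CD79A was lower at 48 h, by 1.77. The mean of 9 monocyte and macrophage markers was 3.22 to 3.40 at 0 h, 3.46 to 3.56 at 24 h and 3.39 to 3.53 at 48 h, near the lower quartile of the arrays (2.89 to 3.24). Of these 9 only ITGAM passed the test, higher by 0.85 at 24 h and 0.82 at 48 h. In bulk RNA, a change in the number of cells of a type and a change in the RNA per cell cannot be told apart. In the T cell list CD3D was higher at 24 h and TRAT1 lower from 8 h on. Limma called 0 of 5 epithelial and 0 of 6 fibroblast markers at any time, with at most 2 and 1 at an unadjusted p under 0.05. The part of these markers in the lysosomal results was not tested.

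Of the 41 lysosomal genes 22 were higher than at 0 h at some later time and 1 was lower. The share of all genes called at some time was not counted, so these counts cannot be set against the shares at each time below. At 4 h only GLA, which encodes an alpha-galactosidase, was called. At 8 h 9 members were higher, among them the cholesterol transporters NPC1 and NPC2 and 5 subunits of the V1 sector. At 24 h and 48 h 17 members were higher, and CTSC, which encodes a dipeptidyl peptidase that activates granule proteases, was the only member called lower. A member was called at an adjusted p under 0.05 in limma, adjusted over all 18417 genes by the Benjamini-Hochberg method, and differences are log2 values of the later time minus 0 h with the model's standard error (SE).

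From 8 h on, the share of members called higher was above that of all genes. The members were chosen with earlier results of these data known, so this excess is a description and not a test. At 4 h 1 of 41 members (2.44%) was higher and 0 lower, where 1.16% of all genes were higher and 0.586% lower. That share is near the background, and the 1 call was lost under 9 of 14 alternatives. Limma gave an unadjusted p under 0.05 for 8 members at 4 h. At 8 h 9 were higher and 0 lower, against 3.5% and 3.18% of all genes, with an unadjusted p under 0.05 for 19. At 12 h 8 were higher and 1 lower, against 3.91% and 4.14%. At 24 h 17 were higher and 1 lower, against 6.74% and 5.74%. At 48 h 17 were higher and 1 lower, against 6.92% and 8.11%. Over the 5 times from 4 h to 48 h, the median difference of the 41 members was 0.08, 0.25, 0.44, 0.49 and 0.58. The median of all genes was 0.03, -0.02, 0.05, -0.01 and 0.05 at these times. The moderated F test over all 5 times called 17 of 41 members, where it called 16.4% of all genes. In all, 23 members were called against 0 h at some time and 18 at none, a count that was not made over all genes. Among the 23, CTSA, CTSD, PSAP, LAMP1, LAMP2, ATP6AP2, ATP6V0A1 and ATP6V0C did not pass the F test (adjusted p = 0.0515 to 0.136). Calls at single times were adjusted over genes and not over the 5 times.

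Single arrays moved these counts. Leaving out replicate 1 or 3 of 8 h or replicate 1 of 0 h gave 5 members higher at 8 h, and leaving out replicate 2 of 0 h gave 4. Leaving out replicate 1 of 24 h or of 0 h gave 10 at 24 h. Leaving out replicate 3 of 48 h gave 10 at 48 h, and leaving out replicate 1 of 0 h gave 11. With each array of a comparison left out in turn, 3 of the 9 calls against 0 h held at 8 h. At 12 h 6 of 9 held, and at 24 h 9 of 18. At 48 h 10 of 18 held.

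**Figure D1:**
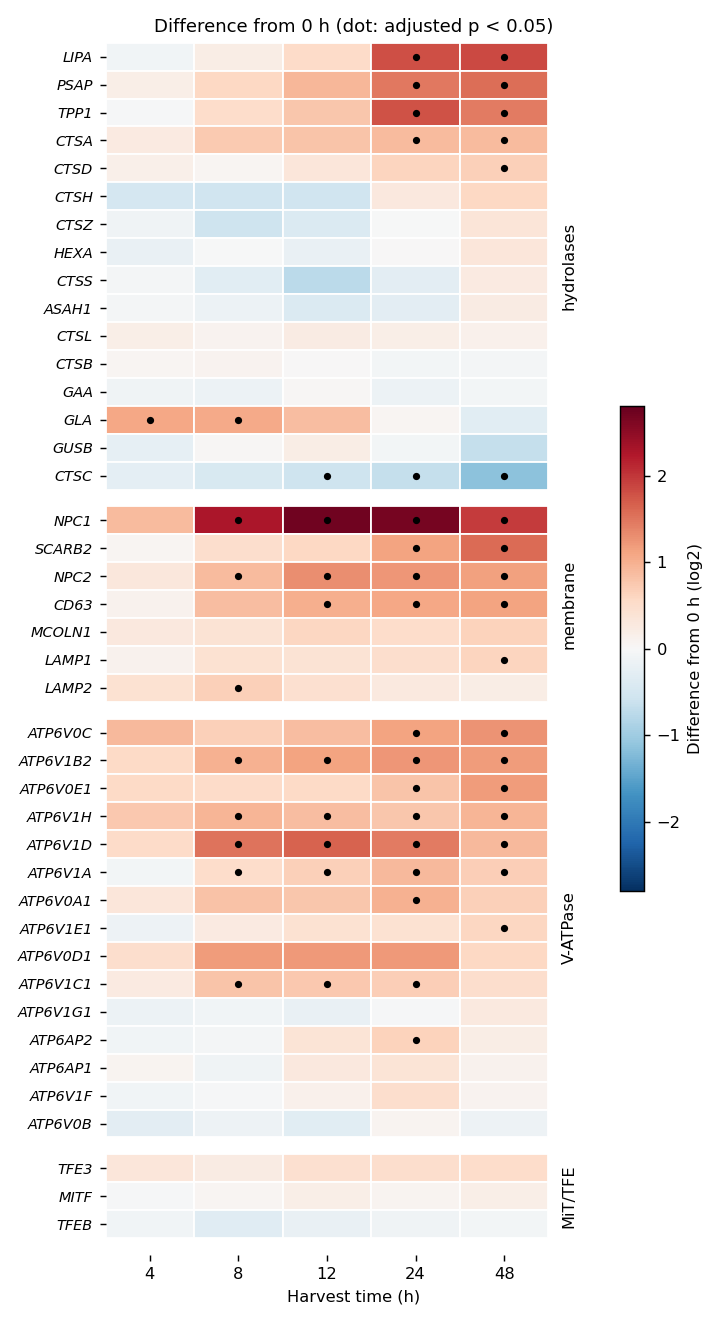
Colour map of the difference from 0 h (log2) for the 41 members in rows, grouped by class, at the 5 later harvest times in columns (h). A dot marks an adjusted p under 0.05. The rows of the membrane proteins are above 0 at all 5 times, and CTSC is the only row with dots on the negative side.

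Among the listed genes the classes differed in how many members were called, a difference that was not itself tested. Membrane proteins and hydrolases outside the list, described further below, lay closer together. Of 22 other membrane proteins 27.3% were higher at 24 h and 22.7% at 48 h. Of 27 other hydrolases 25.9% were higher at 24 h and 18.5% at 48 h. The contrast between these classes is therefore a description of the listed genes. Among the 7 membrane proteins 3 were higher at both 8 h and 12 h (42.9%), 4 at 24 h (57.1%) and 5 by 48 h (71.4%). Their median difference was 0.29, 0.67, 0.60, 1.09 and 1.13 over the 5 times, and all 7 had a positive difference at each time. Among the 15 V-ATPase genes 0 were higher at 4 h (5 with an unadjusted p under 0.05), 5 at both 8 h and 12 h (33.3%), 9 at 24 h (60%) and 7 at 48 h (46.7%), and the class had medians of 0.26, 0.53, 0.66, 0.79 and 0.60. Among the 16 hydrolases 1 was higher at 4 h, 1 at 8 h, 0 at 12 h (7 with an unadjusted p under 0.05 in either direction), 4 at 24 h (25%) and 5 by 48 h (31.2%), and the class had medians of -0.05, 0.04, 0.13, 0.03 and 0.30. Up to 24 h the hydrolase median stayed within 0.13 of 0, while the medians of the membrane proteins and the pump were 0.26 or more at every time. The hydrolases include CTSL, CTSB and GAA, at low mean levels of 2.85, 3.59 and 3.90. Changes may be hidden at such a signal, and the part of these genes in the class median was not tested. Limma called 0 of the 3 transcription factors at any time, with at most 1 at an unadjusted p under 0.05. Single arrays moved the class counts too. At 48 h 3 membrane proteins were higher without replicate 3 of 48 h or replicate 1 of 0 h. At 8 h 1 was higher without replicate 1 of 8 h or replicate 2 of 0 h, and at 12 h 5 were without replicate 3 of 0 h. The V-ATPase count was 5 at 24 h without replicate 1 or 2 of 24 h or of 0 h, and 2 at 8 h without replicate 3 of 8 h or replicate 1 or 2 of 0 h. Leaving out replicate 3 of 48 h gave 2 hydrolases at 48 h, and leaving out replicate 2 of 48 h or any 1 of the 0 h arrays gave 3. At 24 h the hydrolase count was 2 without replicate 1 or 3 of 24 h or replicate 1 of 0 h.

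**Figure D2:**
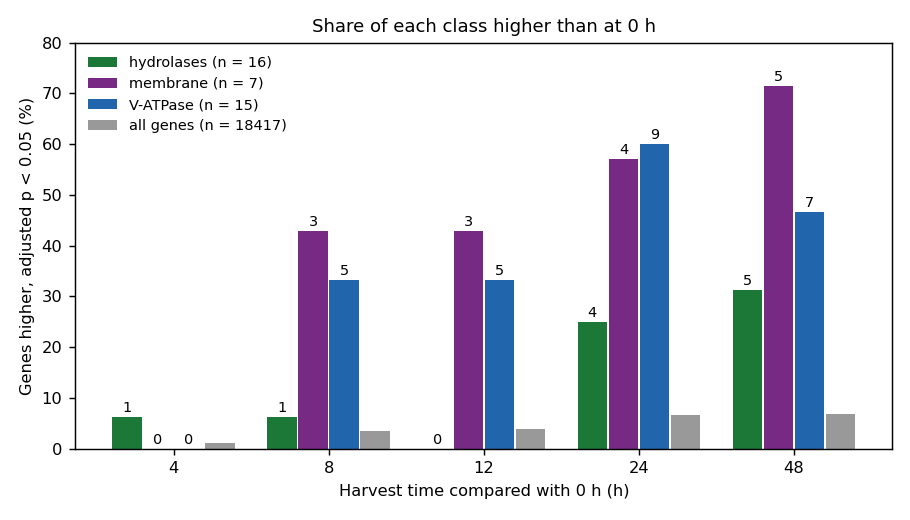
Percent of each class called higher than at 0 h (adjusted p under 0.05) at each later harvest time (h), as bars with the number of genes above each, and all 18417 genes in grey. Membrane proteins reach 71.4% at 48 h, V-ATPase genes 60% at 24 h and hydrolases 31.2% at 48 h, where all genes reach 6.92%.

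NPC1, the membrane protein that exports cholesterol from the lysosome, gave the largest difference of all members. Its log2 intensities were 5.33, 5.45 and 5.84 at 0 h, 6.43, 6.32 and 6.54 at 4 h, 7.98, 7.70 and 7.82 at 8 h, 8.34, 7.98 and 8.48 at 12 h, 8.33, 8.45 and 7.88 at 24 h, and 6.78, 7.77 and 7.91 at 48 h. All 3 arrays of every later time lay above the 3 arrays of 0 h. The difference was 2.29 at 8 h (SE 0.25, adjusted p = 2.66e-05), 2.73 at 12 h, which is 6.62-fold (95% interval 2.21 to 3.24, adjusted p = 3.22e-06), and 1.95 at 48 h (adjusted p = 2.31e-05). At 4 h it was 0.89 (adjusted p = 0.079). NPC1 was also the 1 member called between 4 h and 8 h, higher by 1.40 at 8 h (limma, adjusted p = 0.019), where 0.119% of all genes were higher and 0.103% lower. Leaving out replicate 1 of 8 h (adjusted p = 0.125), replicate 1 of 4 h (0.0901) or replicate 2 of 4 h (0.113) ended that call, while the calls against 0 h held without any single array.

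NPC2, the soluble partner that hands cholesterol to NPC1 inside the lysosome, moved the same way with a smaller size. It measured 8.30, 8.10 and 8.38 at 12 h, against 6.51, 6.98 and 7.42 at 0 h, and the groups did not overlap. The difference was 1.29 at 12 h (2.45-fold, limma adjusted p = 0.00109), 1.24 at 24 h and 1.16 at 48 h (adjusted p = 0.00123). Its call at 8 h (0.89, adjusted p = 0.0194) was lost without replicate 1 of 8 h, replicate 1 of 0 h or replicate 2 of 0 h (adjusted p = 0.0606 to 0.105).

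LIPA, the acid lipase that frees cholesterol and fatty acids from lipids delivered to the lysosome, rose later than the cholesterol transporters. Its log2 intensities were 6.28, 6.60 and 6.32 at 0 h, 6.35, 6.47 and 6.10 at 4 h, 6.83, 6.49 and 6.53 at 8 h, 6.81, 6.84 and 7.13 at 12 h, 8.53, 8.25 and 7.82 at 24 h, and 7.98, 8.26 and 8.50 at 48 h. The 24 h and 48 h arrays all lay above every array of the earlier times. The difference from 0 h was 1.80 at 24 h (3.49-fold, SE 0.19, limma adjusted p = 5.92e-06) and 1.85 at 48 h (adjusted p = 2.48e-06), against 0.53 at 12 h (adjusted p = 0.106). LIPA was the 1 member called between 12 h and 24 h, higher by 1.28 (adjusted p = 0.00143), where 0.814% of all genes were higher and 0.554% lower. Limma called 0 of 41 members between 8 h and 12 h (1 with an unadjusted p under 0.05) and 0 between 24 h and 48 h (5 with an unadjusted p under 0.05). Among all genes, 0% were higher and 0% lower between 8 h and 12 h, and 0.0706% were higher and 0.331% lower between 24 h and 48 h.

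**Figure D3:**
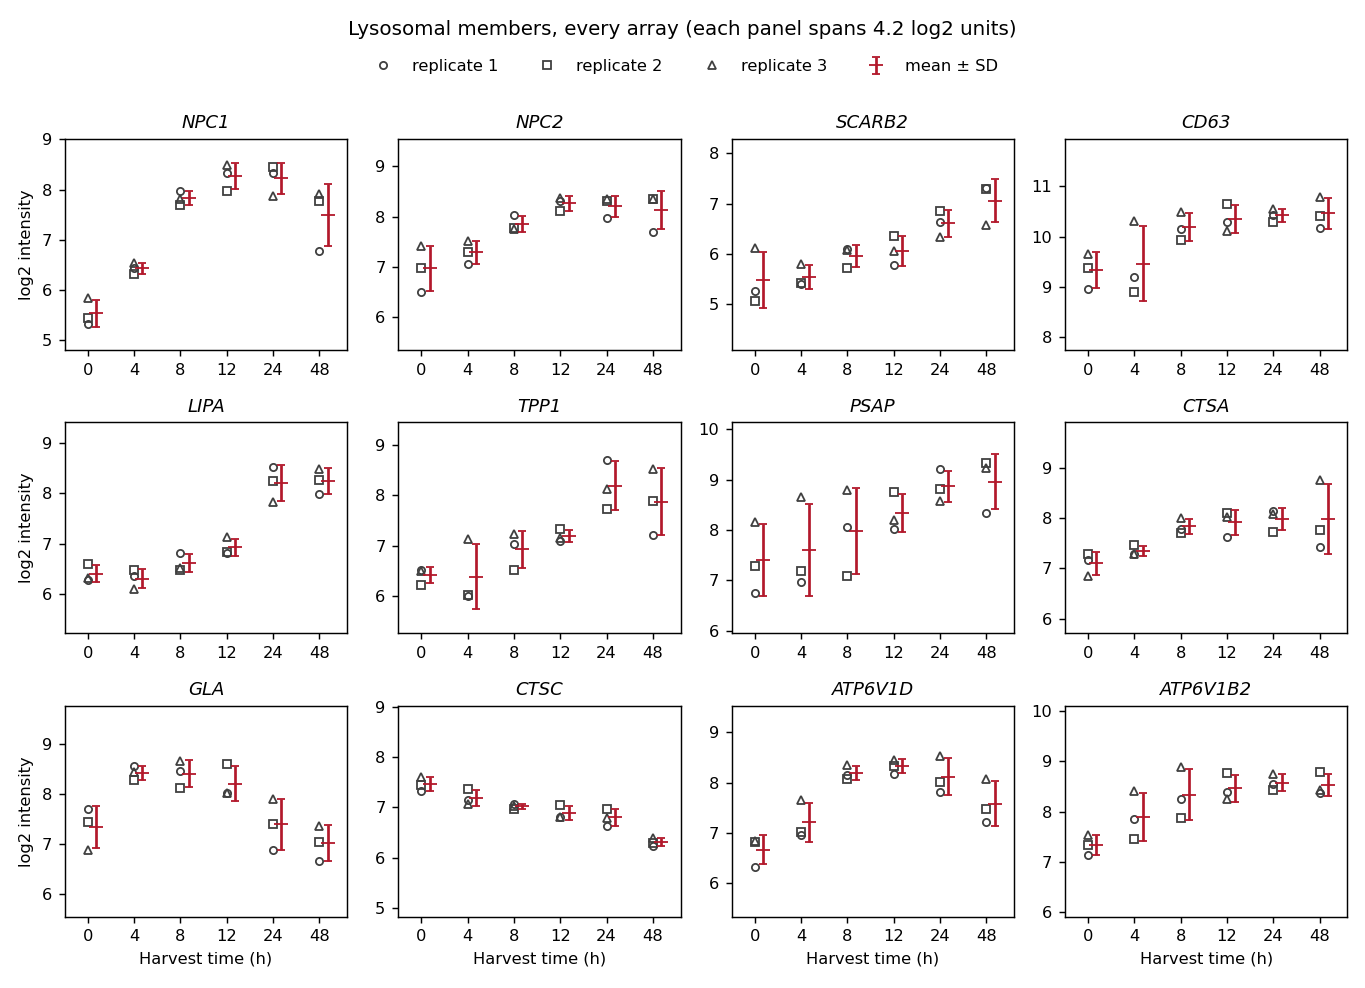
Log2 intensity of selected members on each array, by harvest time (h), as open symbols by replicate with the mean ± SD of 3 arrays, each panel spanning 4.2 log2 units. NPC1 is already above its 0 h arrays at 4 h and stays there, LIPA steps up between 12 h and 24 h, and CTSC declines to 6.23 to 6.38 at 48 h.

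Among the other hydrolases, TPP1, a peptidase that removes tripeptides from protein ends, measured 8.71, 7.73 and 8.14 at 24 h, against 6.51, 6.23 and 6.50 at 0 h. Its difference was 1.78 at 24 h (3.43-fold, limma adjusted p = 0.00125) and 1.46 at 48 h (adjusted p = 0.00459), with all later arrays above those of 0 h at both times. PSAP, the precursor of the saposins that help hydrolases reach their lipid substrates, varied more: it measured 8.34, 9.33 and 9.23 at 48 h, against 6.75, 7.29 and 8.16 at 0 h. Its groups did not overlap at 48 h, and the difference was 1.56 (SE 0.46, adjusted p = 0.0265). That call was lost without replicate 2 or 3 of 48 h or replicate 1 or 2 of 0 h (adjusted p = 0.0811 to 0.122). The 24 h call of PSAP (1.47, adjusted p = 0.0434) was lost without any 1 of the 24 h arrays or of replicates 1 and 2 of 0 h (0.0598 to 0.184).

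GLA, the alpha-galactosidase that trims glycolipids, was the only member called at 4 h. It measured 7.70, 7.45 and 6.88 at 0 h, 8.56, 8.27 and 8.43 at 4 h, 8.45, 8.12 and 8.65 at 8 h, and 8.01, 8.60 and 8.01 at 12 h. The arrays of 4, 8 and 12 h all lay above those of 0 h, and the difference was 1.08 at 4 h (SE 0.26, limma adjusted p = 0.0449) and 1.06 at 8 h (adjusted p = 0.0195). At 12 h the difference was 0.86 without a call (adjusted p = 0.0526), and at 24 h it was 0.05. At 48 h GLA measured 6.66, 7.03 and 7.37, a difference of -0.32 (adjusted p = 0.506) with overlapping arrays. The 4 h call was lost without any 1 of the 4 h arrays or of replicates 2 and 3 of 0 h (adjusted p = 0.0933 to 0.176). The 8 h call was lost without replicate 1 or 3 of 8 h or replicate 3 of 0 h (0.0624 to 0.104).

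The 8 cathepsins, the main lysosomal proteases, split. CTSC measured 7.33, 7.43 and 7.61 at 0 h, 6.81, 7.05 and 6.80 at 12 h, 6.63, 6.97 and 6.79 at 24 h, and 6.23, 6.30 and 6.38 at 48 h. All arrays from 8 h on lay below those of 0 h. CTSC fell by 1.15 at 48 h (2.23-fold lower, 95% interval -1.45 to -0.86, limma adjusted p = 1.39e-05) and by 0.66 at 24 h (adjusted p = 0.00354). Its call at 12 h (-0.57, adjusted p = 0.0155) was lost without replicate 1 or 3 of 12 h or replicate 3 of 0 h (0.0648 to 0.0723). CTSA, a carboxypeptidase that also shields beta-galactosidase and the sialidase NEU1, measured 7.42, 7.77 and 8.76 at 48 h, against 7.17, 7.29 and 6.85 at 0 h. The groups did not overlap, and it was higher by 0.88 both at 24 h (adjusted p = 0.0267) and at 48 h (adjusted p = 0.023). The CTSA call at 24 h was lost without replicate 1 or 3 of 24 h or of 0 h (0.058 to 0.109), and that at 48 h without replicate 3 of 48 h or of 0 h (0.114 and 0.0961).

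CTSD, the main aspartic protease, measured 4.86, 5.73 and 5.91 at 48 h, against 4.77, 4.81 and 4.92 at 0 h, with replicate 1 of 48 h inside the 0 h range. Its difference of 0.67 was called in limma (adjusted p = 0.0429), and the call was lost without replicate 2 or 3 of 48 h or any 1 of the 0 h arrays (adjusted p = 0.0694 to 0.196). CTSH, an aminopeptidase, and CTSZ, a carboxypeptidase, passed the F test over all times (adjusted p = 0.00984 and 0.0201) without a call at any single time against 0 h. CTSH differed from 0 h by -0.56 at 8 h (adjusted p = 0.27) and 0.58 at 48 h (adjusted p = 0.164). CTSZ differed by -0.59 at 8 h (adjusted p = 0.0879) and 0.36 at 48 h (adjusted p = 0.265). For both genes the sign differed between 8 h and 48 h, and no consecutive comparison was called.

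CTSS, which trims the invariant chain of MHC class II in B cells, was not called. It measured 6.33, 6.73 and 6.26 at 12 h, against 7.05, 6.88 and 7.63 at 0 h, a difference of -0.75 with arrays that did not overlap (limma adjusted p = 0.0905). CTSB, a broad cysteine protease, stayed at 3.22 to 4.09 on all arrays, and its 95% interval at 48 h was -0.46 to 0.33 around -0.06. Its mean level of 3.59 lay under the array medians (4.03 to 4.25), so changes may be hidden at this low signal. CTSL, another cysteine protease, was under the lower quartile of the array on 14 of 18 arrays, so changes below the background signal cannot be seen for it.

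The remaining hydrolases were not called at any time. GAA, which breaks down lysosomal glycogen, differed by -0.07 at 48 h (95% interval -0.46 to 0.32), at a mean level of 3.90, under the array medians. HEXA, a subunit of beta-hexosaminidase, differed by 0.34 (95% interval -0.16 to 0.84), and the acid ceramidase ASAH1 by 0.23 (95% interval -0.44 to 0.89). GUSB, the beta-glucuronidase, differed by -0.67 (95% interval -1.23 to -0.10, limma adjusted p = 0.116). GUSB has 7 further probe sets that name several genes, so its signal may be shared with similar genes and is uncertain. Intervals of this width do not show that these genes were unchanged.

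Beside the cholesterol transporters, SCARB2, the receptor that carries glucocerebrosidase to lysosomes, showed the largest rise among membrane proteins at 48 h. It measured 7.31, 7.30 and 6.58 at 48 h, against 5.26, 5.06 and 6.12 at 0 h, and the groups did not overlap. The difference was 1.58 (2.99-fold, limma adjusted p = 0.000336), and 1.13 at 24 h (adjusted p = 0.00706). CD63, a tetraspanin of lysosomes and exosomes, measured 10.18, 10.42 and 10.79 at 48 h, against 8.96, 9.39 and 9.66 at 0 h. It was higher by 1.01 at 12 h (adjusted p = 0.0366), 1.09 at 24 h (adjusted p = 0.0169) and 1.13 at 48 h (adjusted p = 0.0113), with no overlap at these times. The 48 h call of CD63 was lost without replicate 3 of 48 h or replicate 1 of 0 h (0.0531 and 0.0616). Its 24 h call was lost without replicate 1 or 3 of 24 h or replicate 1 of 0 h (up to 0.0875). Its 12 h call was lost without any 1 of the 12 h arrays or of replicates 1 and 2 of 0 h (up to 0.15).

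The main glycoproteins of the lysosomal membrane were called at different times. LAMP2, which also serves chaperone-mediated autophagy, measured 9.44, 9.46 and 9.13 at 8 h, against 8.72, 8.40 and 8.90 at 0 h, higher by 0.67 (limma adjusted p = 0.0156). At 48 h it measured 8.96, 8.77 and 8.92, overlapping with 0 h, and differed by 0.21 (adjusted p = 0.459). LAMP1 measured 6.39, 6.65 and 6.62 at 48 h, against 5.77, 5.94 and 6.06 at 0 h, higher by 0.63 (adjusted p = 0.0296). The LAMP2 call was lost without replicate 1 or 2 of 8 h or replicate 2 of 0 h (0.0524 to 0.091). The LAMP1 call was lost without replicate 2 or 3 of 48 h or replicate 1 or 2 of 0 h (0.0707 to 0.106). MCOLN1, the calcium channel of the lysosomal membrane, differed by 0.65 at 48 h without a call (adjusted p = 0.0559), with its 48 h arrays above those of 0 h.

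In the proton pump, V1 genes were called at 8 h and V0 genes at 24 h, and the difference between the sectors was not tested. The same 5 of 8 V1 genes were higher at 8, 12 and 24 h (ATP6V1A, ATP6V1B2, ATP6V1C1, ATP6V1D and ATP6V1H). At 48 h 5 of 8 were higher again, with ATP6V1E1 in place of ATP6V1C1. Of the 5 V0 genes 0 were higher at 4, 8 and 12 h, 3 at 24 h (ATP6V0A1, ATP6V0C and ATP6V0E1) and 2 at 48 h. The V0 median was nonetheless 0.50 at 4 h, where the V1 median was 0.09, and both medians were 0.66 at 8 h. At 24 h they were 0.99 (V0) and 0.74 (V1), so the order of calls is not an order of levels. The standard errors ran from 0.23 to 0.55 among V0 genes and from 0.15 to 0.27 among V1 genes. Single arrays changed this timing of the calls. Without replicate 1 of 24 h 0 of 5 V0 genes were higher at 24 h, and 1 was without replicate 2 of 24 h or replicate 1 or 2 of 0 h. At 8 h 2 of 8 V1 genes were higher without replicate 3 of 8 h or replicate 1 or 2 of 0 h, and 1 V0 gene was higher without replicate 2 of 8 h. At 48 h 3 V1 genes were higher without replicate 3 of 48 h or replicate 1 of 0 h, and 1 V0 gene without replicate 2 of 48 h.

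ATP6V1D, a subunit of the rotor shaft, gave the largest difference of the pump. It measured 6.33, 6.82 and 6.85 at 0 h, 8.15, 8.07 and 8.35 at 8 h, and 8.18, 8.34 and 8.46 at 12 h. At every later time all 3 arrays lay above those of 0 h. It was higher by 1.52 at 8 h (2.87-fold, limma adjusted p = 0.000763), 1.66 at 12 h (3.16-fold, adjusted p = 0.000255) and 0.92 at 48 h (adjusted p = 0.0133). The 48 h call was lost without replicate 3 of 48 h or replicate 1 of 0 h (0.0756 and 0.072).

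ATP6V1A and ATP6V1B2 encode the subunits that form the ATP-splitting ring. ATP6V1A measured 9.43, 9.31 and 9.56 at 24 h, against 8.43, 8.50 and 8.63 at 0 h, higher by 0.92 (1.89-fold, limma adjusted p = 0.000419). ATP6V1B2 measured 8.56, 8.42 and 8.75 at 24 h, against 7.14, 7.33 and 7.54 at 0 h, higher by 1.24 (2.37-fold, adjusted p = 0.00251). For both, the later arrays lay above those of 0 h at 8, 12, 24 and 48 h. At 8 h the ATP6V1A call (0.52, adjusted p = 0.0423) was lost without any 1 of the 6 arrays (0.0579 to 0.131). The 8 h call of ATP6V1B2 (1.00, adjusted p = 0.0199) was lost without replicate 3 of 8 h or replicate 1 or 2 of 0 h (0.0661 to 0.102).

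The other V1 genes encode stator, regulatory and rotor parts. ATP6V1C1, which joins V1 to V0, measured 9.26, 9.27 and 8.90 at 8 h, against 8.48, 8.50 and 8.05 at 0 h, higher by 0.80 (limma adjusted p = 0.00616), and by 0.50 at 48 h without a call (adjusted p = 0.0509). Its call at 24 h (0.70, adjusted p = 0.0085) was lost without replicate 3 of 0 h (0.0511). ATP6V1H, a regulatory subunit, measured 7.81, 8.13 and 8.36 at 48 h, against 6.85, 7.02 and 7.58 at 0 h, higher by 0.95 (adjusted p = 0.00523). Its calls at 8, 12 and 24 h (0.95, 0.86 and 0.79) were lost without replicate 1 or 2 of 0 h, and without replicate 3 of 8 h, replicate 2 of 12 h, or replicate 2 or 3 of 24 h (up to 0.112). ATP6V1E1, a stator subunit, was higher by 0.60 at 48 h (adjusted p = 0.0381), a call lost without replicate 2 or 3 of 48 h or any 1 of the 0 h arrays (0.0659 to 0.164). ATP6V1F of the rotor and ATP6V1G1 of the stator were not called, at 0.09 (95% interval -0.49 to 0.67) and 0.27 (95% interval -0.21 to 0.74) at 48 h.

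**Figure D4:**
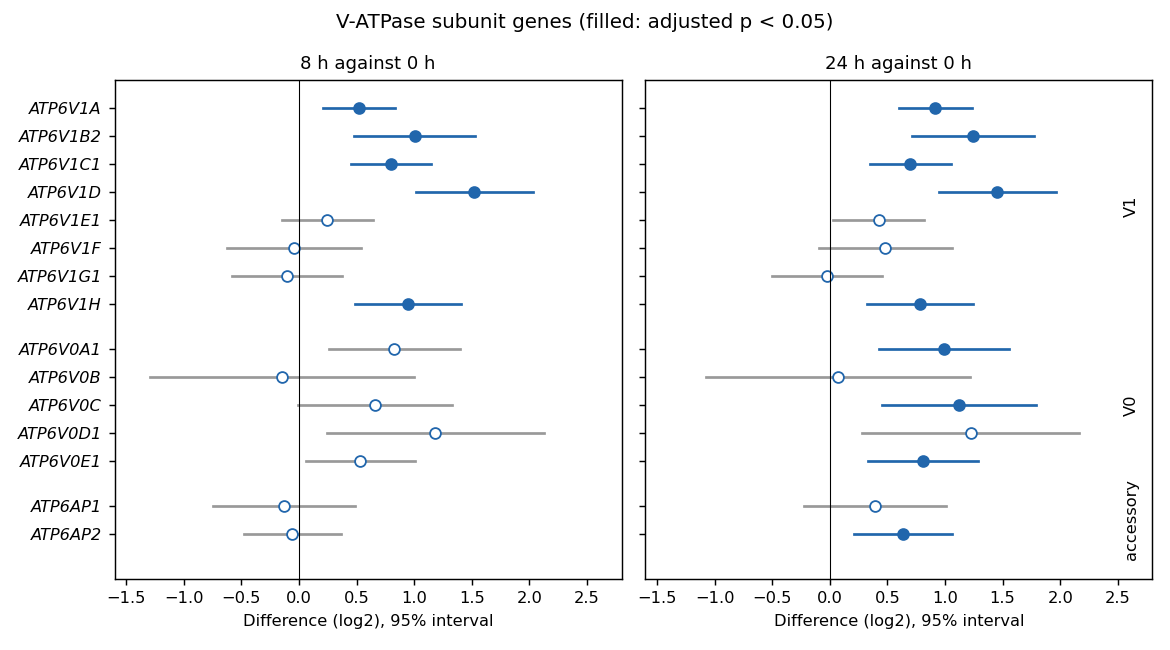
Difference from 0 h (log2) of the V-ATPase genes with 95% intervals, at 8 h and 24 h in panels, with V1, V0 and accessory genes in rows. Filled points have an adjusted p under 0.05. ATP6V1D lies farthest to the right at 8 h (1.52) and 24 h (1.45), and ATP6V0B has the widest interval.

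In the V0 sector, ATP6V0E1, a small membrane subunit, measured 9.89, 9.88 and 9.81 at 48 h, against 9.08, 8.55 and 8.40 at 0 h, higher by 1.18 (2.27-fold, limma adjusted p = 0.00119). At 24 h it was called at 0.81 (adjusted p = 0.0228) although replicate 3 of 24 h (8.89) lay inside the 0 h range. That call was lost without replicate 1 or 2 of 24 h or replicate 2 or 3 of 0 h (0.0835 to 0.149). ATP6V0C, which forms most of the proton-carrying ring, measured 5.91, 6.80 and 6.55 at 48 h, against 5.01, 4.93 and 5.52 at 0 h, higher by 1.27 (2.41-fold, adjusted p = 0.00989). This was lost without replicate 2 of 48 h (0.0558), and its 24 h call (1.12, adjusted p = 0.0253) without replicate 1 or 2 of 24 h or of 0 h (up to 0.156).

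ATP6V0A1, a form of the subunit that holds the proton path, was higher by 0.99 at 24 h (limma adjusted p = 0.0192), a call lost without replicate 1 of 24 h or of 0 h (0.089 and 0.0753). ATP6V0D1, which joins the ring to the rotor, measured 6.97, 6.51 and 7.61 at 8 h, against 6.0, 5.98 and 5.57 at 0 h. These groups did not overlap, but the difference of 1.18 was not called (SE 0.45, adjusted p = 0.145). ATP6V0B, a second ring subunit, ranged over 5.33 to 7.50 at 4 h alone, and its 95% interval at 48 h was -1.29 to 1.00. Of the accessory proteins, ATP6AP2 was higher by 0.63 at 24 h (adjusted p = 0.0457), a call lost without any 1 of the 24 h arrays or of replicates 1 and 2 of 0 h (0.0949 to 0.148). ATP6AP1 was not called, at 0.11 at 48 h (95% interval -0.50 to 0.73).

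The transcription factors of the pathway were not called at the mRNA level. TFEB measured 4.26, 4.38 and 4.45 at 8 h, against 4.67, 4.66 and 4.80 at 0 h, a difference of -0.34 with arrays that did not overlap (limma adjusted p = 0.156), and -0.08 at 48 h (95% interval -0.36 to 0.20). TFE3 measured 4.61, 4.25 and 4.69 at 48 h, against 4.03, 3.82 and 4.13 at 0 h, a difference of 0.52 without a call (adjusted p = 0.0592), though its arrays did not overlap. MITF differed by 0.18 at 48 h (95% interval -0.12 to 0.47) and lay near the lower quartile of the arrays. These factors are known to be controlled by phosphorylation and location, which the arrays do not measure. The CACGTG letters were in the windows of 4 of the 15 members with a window that rose at some time (CTSA, CTSD, LAMP1 and CD63; 26.7%). They were in those of 5 of the 15 that did not (GAA, MCOLN1, ATP6V0B, ATP6V0D1 and ATP6V1G1; 33.3%).

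Other genes of the pathway, from lists outside the 41, moved in part. Of 27 other lysosomal hydrolases 5 were higher (18.5%) and 1 lower at 48 h, with a median of 0.12. Of all genes 6.92% were higher and 8.11% lower at 48 h. NEU1, the lysosomal sialidase, measured 5.99, 7.49 and 7.44 at 48 h, against 4.60, 5.05 and 5.69 at 0 h, higher by 1.86 (limma adjusted p = 0.00204). LGMN, a protease that matures cathepsins, was higher by 1.49 at 48 h (adjusted p = 5.6e-06), and GM2A, the activator for ganglioside breakdown, by 1.14 (adjusted p = 0.00287). ARSB, which removes sulfate from glycosaminoglycans, fell by 1.11 (adjusted p = 2.49e-05). MAN2B1 (0.78) and SMPD1 (0.55) complete the count and were named after their values were seen. These 4 genes were already called at 8 h, NEU1 at 1.85, LGMN at 1.18, GM2A at 1.25 and ARSB at -0.87.

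Of 22 other lysosomal membrane proteins 5 were higher (22.7%) and 1 lower at 48 h, with a median of 0.31. Of all genes 6.92% were higher and 8.11% lower at 48 h. CD68, a lysosomal glycoprotein abundant in macrophages, measured 8.11, 8.06 and 7.80 at 48 h, against 4.73, 4.18 and 4.45 at 0 h, higher by 3.54 (11.6-fold, limma adjusted p = 4.01e-09). Between 12 h and 24 h it was higher by 1.29 at 24 h (adjusted p = 0.00239). LAMP3, a lysosomal protein of mature dendritic cells, measured 6.83, 6.37 and 4.98 at 24 h, against 3.69, 3.61 and 3.66 at 0 h, higher by 2.41 (adjusted p = 0.000305). Beside these, the 9 monocyte and macrophage markers held the levels given above, with 1 of 9 called. SLC36A1, which carries amino acids out of lysosomes, was higher by 1.05 at 48 h, and OSTM1, the partner of a lysosomal chloride transporter, by 1.01. CTNS (0.91) and MCOLN2 (-0.59) complete the count and were named after their values were seen. Where the 15 listed V-ATPase genes had medians of 0.79 at 24 h and 0.60 at 48 h, the 8 other V-ATPase genes had -0.10, with 3 of 8 positive, and -0.04, with 4 of 8 positive. Among them TCIRG1 was the 1 gene higher at 48 h (0.56), named after its value was seen. That is 12.5% of the 8, where 6.92% of all genes were higher. The 0 h means of these 8 genes ran from 2.49 to 7.51. Some lay near or under the lower quartile of the arrays (2.89 to 3.24), so changes below the background signal cannot be seen for them.

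Sorting and signalling genes at the lysosome were also followed. Of 12 genes of mannose 6-phosphate and sortilin sorting 2 were higher at 24 h (16.7%) and 1 at 48 h (8.33%), where 6.74% and 6.92% of all genes were higher. The 48 h share is near that of all genes, and the median was 0.12. IGF2R, the receptor that delivers hydrolases to lysosomes, measured 8.02, 8.73 and 8.71 at 48 h, against 5.98, 6.37 and 6.64 at 0 h, higher by 2.16 (4.46-fold, limma adjusted p = 4.87e-06). AP1G1, an adaptor of that transport, was higher by 0.66 at 24 h (adjusted p = 0.00426). Of 18 regulators of TFEB on the lysosome 4 were higher (22.2%) and 0 lower at 48 h, with a median of 0.21. Of all genes 6.92% were higher and 8.11% lower. The 4 regulators were the Rag GTPases RRAGD (1.70), RRAGC (1.50) and RRAGA (0.69), which recruit mTORC1, and FNIP1 (1.58), a partner of folliculin that acts on them. RRAGC was called at 4 h already, at 1.29 (adjusted p = 0.00264). Of 4 cystatins, inhibitors of cysteine cathepsins, 2 were higher at 48 h (50%), against 6.92% of all genes. CSTB was higher by 0.82 (limma adjusted p = 0.00131) and CSTA by 2.42 (adjusted p = 0.00307). CSTA measured 7.37, 6.96 and 4.12 at 48 h, against 3.66, 3.61 and 3.92 at 0 h, so 1 array of 48 h lay close to the 0 h level.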

How the data were processed

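The 18 arrays, 3 for each of 6 harvest times, were used as the authors deposited them. What the authors deposited was log2 intensities already on a common scale between arrays. Both points were read from the values, with array medians of 4.03 to 4.25 and maxima of 12.39 to 12.93, which in another base would exceed a scanner's range. The sources used here do not give the software, background correction or normalization method. Of 33297 probe sets the platform's gene table named 1 gene for 19460 and several for 1754, and 12083 were not named. Of the 1-gene probe sets 19429 matched the RefSeq gene table (GRCh38.p14) by gene ID. Each of 18417 genes was represented by its probe set with the highest mean, and no gene was filtered out.

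Linear models in limma 3.58.1 (R 4.3.3) had harvest time as the single factor over the 18 arrays (12 residual and 5.58 prior degrees of freedom) and were checked on simulated data. Tests were two-sided, with Benjamini-Hochberg adjustment over all genes and 0.05 as the threshold. The alternatives were quantile normalization, median centring, a filter on dim genes, averaged probe sets, a replicate block, array weights, a variance trend, fits of 6 arrays alone and each array left out. For arrays, their number limits the precision. The members, lists, tests and alternatives were chosen with earlier results of these data known. All 41 members could be named, and of each other list at most 4 genes past the F test with the largest absolute difference at 48 h. Summaries, motif counts and plots were made in Python 3.11.15 (pandas 2.3.3, matplotlib 3.10.9).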

Additional observations from a re-analysis of the deposited data

How the results depend on the processing

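Of the 55 calls of members against 0 h, 25 held under all 14 alternatives run for each. Of 770 alternative values 644 kept the call, 126 kept the direction without it and 0 reversed. The calls that held throughout were those of NPC1 (8 to 48 h), NPC2 (12 to 48 h), LIPA, TPP1, SCARB2 and ATP6V1B2 from 12 h on where called, CTSC at 24 and 48 h, ATP6V1D at 8 to 24 h, ATP6V1C1 at 12 h, ATP6V1A at 24 h, and ATP6V0E1 and ATP6V1H at 48 h. With array weights, which gave the 8 h arrays weights of 5.18, 0.246 and 0.827, the F test called 28 members instead of 17. The weighted counts higher were 3 at 4 h, 16 at 8 h and 13 at 12 h, those lower were 2 at 8 h and 2 at 12 h, and 8 changed between 4 h and 8 h and 4 between 12 h and 24 h. With only the 6 arrays compared, where fewer samples inform the spread, 0 were higher at 4 h, 2 at 8 h and 14 at 12 h, and 0 changed between 4 h and 8 h. At 4 h the count higher was 3 with quantile normalization, 0 with median centring and 0 with a variance trend. At 12 h the count lower was 2 with median centring and 0 with a variance trend. Centring put the median difference of all genes at -0.06 (4 h), -0.07 (12 h), -0.10 (24 h) and -0.09 (48 h). The labels tie replicate numbers to nothing shared. Deviations of same-numbered arrays correlated at a median of 0.078 (-0.243 to 0.60, 20 of 45 pairs over 0.1), and those of differently numbered arrays at -0.059 (25 of 90 over 0.1). Of 18 arrays 9 correlated best with their own number, which 5 of the 15 arrays of other times carry, a hint of sharing that did not hold for every array, so the numbers were not taken to pair samples. With them as a replicate block 2 members were lower at 48 h, 2 changed between 4 h and 8 h, and the other counts stayed within 1.5 times. With 1 array left out, the F test called 14 to 20 members. The counts higher ran from 0 to 1 (4 h), 4 to 8 (8 h), 6 to 10 (12 h), 10 to 15 (24 h) and 10 to 19 (48 h). The counts lower ran from 0 to 1 (8 h), 0 to 1 (12 h) and 1 to 2 (48 h), and 0 to 1 member changed between 4 h and 8 h. Of 63 further calls, of other named genes and between consecutive times, 54 held under all alternatives and 0 reversed. RRAGD at 12 h and FNIP1 at 4 h and 24 h were among those lost with 1 array left out. The causes of these changes were not tested. Genes near the array background, such as CTSL, can hide changes.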
